A study of Mus musculus with 24 samples.

Results

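The 10 genes described here encode transcription factors of the AP-1 family in mouse natural killer (NK) cells: Jun, Junb and Jund, Fos, Fosb and Fosl2, Batf and Batf3, Atf3 and Maff. They were chosen by gene name from the 53465 genes of the count table, and their levels were read in all 24 libraries. The cells were taken at day 14 from B16F10 tumours, which a mouse melanoma line forms when placed under the skin of the flank of female wild-type B6 mice. Each library held RNA of 100 sorted cells, and 6 libraries were made from each of 4 populations: CD27+CD69+, CD27+CD69-, CD11b+CD69+ and CD11b+CD69- NK cells. No population received a treatment of its own, and all came from tumours, so no NK cells from outside a tumour are compared here.

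AP-1 proteins carry a basic region that contacts DNA and a leucine zipper that holds a pair of them together. Jun proteins can pair with each other or with Fos, Batf and Atf proteins, while Fos proteins bind DNA only with a partner, and Batf and the small Maf proteins lack the activation domain of Jun and Fos. In lymphocytes, activating receptors drive transcription of several of these genes within minutes through MAP kinases, and AP-1 dimers act on cytokine and effector genes beside NFAT and IRF proteins. CD69 is a surface protein that appears early after activation, while CD27 marks less mature and CD11b more mature mouse NK cells.

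The libraries held between 1213914 and 2671533 counts (median 2213433), so that 3 counts stood for 1.15 to 2.47 CPM, the count scaled to the size of each library. The summed level of 7 NK cell markers was 10260 ± 791 CPM in CD27+CD69+, 10180 ± 1843 in CD27+CD69-, 20650 ± 1209 in CD11b+CD69+ and 25400 ± 1131 in CD11b+CD69- libraries (mean ± SD, n = 6 each), and each of the 7 was detected in every population, although every sample is labelled as melanoma by cell type. Markers of other cells moved with the populations. The 8 fibroblast markers summed to 258 to 11000 CPM in CD27+CD69- libraries, against 0 to 232 in CD27+CD69+, 0 in every CD11b+CD69+ and 0 to 8.02 in CD11b+CD69- libraries. The 8 T cell markers summed to 1140 ± 339 CPM in CD27+CD69+, 668 ± 310 in CD27+CD69-, 58.6 ± 48.2 in CD11b+CD69+ and 7.09 ± 12.3 in CD11b+CD69- libraries, with Foxp3 at 0 in all but CD11b+CD69+ libraries. The 7 melanoma markers reached 5826 CPM in CD27+CD69- replicate 6 and at most 278 in any other library. The 9 macrophage markers stayed between 8.22 and 74.2 CPM in all libraries. Fewer cells of a type and less RNA per cell cannot be told apart in such libraries.

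Junb and Fos dominated the family in all 4 populations. Per kilobase of exon, the mean over all libraries was 1007 CPM for Junb and 664 for Fos, above 99.7% and 99.4% of 10531 tested genes with a known length. Together these genes made up 83.3 to 91.2% of the summed level per kilobase of the 10 members (median 87.8% over libraries). Batf at 61.4, Atf3 at 59.8 and Jun at 58.2 CPM per kilobase formed a middle group, followed by Jund at 35.1. Fosl2 at 12.6 and Fosb at 9.71 CPM per kilobase were low, and Maff at 4.57 was above only 37.7% of tested genes. Batf3 was close to absent, at 0.267 CPM per kilobase. The chart of family make-up gives these shares for each population.

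**Figure D1:**
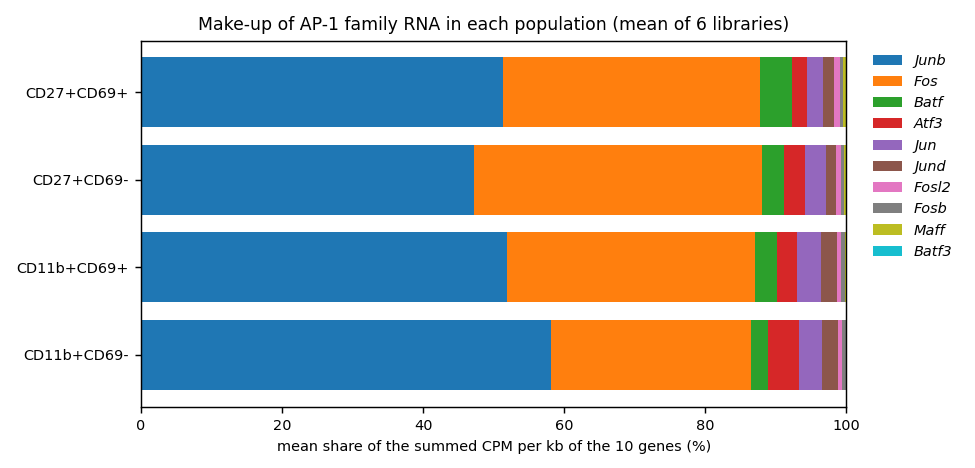
Mean share (%, horizontal axis) of each gene in the summed CPM per kilobase of the 10 genes, for 4 NK populations (rows, n = 6 libraries each). Junb held 51.3, 47.2, 51.9 and 58.1% and Fos 36.5, 40.9, 35.2 and 28.3% from the top row to the bottom row.

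The share of Junb within the family averaged between 47.2% and 51.9% in the first 3 populations and 58.1 ± 5.41% in CD11b+CD69- libraries. The share of Fos was 40.9 ± 4.82% in CD27+CD69- and 28.3 ± 3.99% in CD11b+CD69- cells (SD, n = 6 each). Junb and Fos made up most of the sum, so a higher share of either lowers the other by construction. In level, Fos averaged 1441 CPM in CD11b+CD69+ and 1458 CPM in CD11b+CD69- cells, while its share averaged 35.2 and 28.3%. These shares overlapped between the libraries of the populations: Junb spanned 38.1 to 55.4% in CD27+CD69- and 51.6 to 67.4% in CD11b+CD69- libraries. The summed CPM of the 3 Jun genes averaged 2291 in CD27+CD69+, 2400 in CD27+CD69-, 2323 in CD11b+CD69+ and 3228 in CD11b+CD69- libraries. The sum of the 3 Fos genes averaged 1711, 2008, 1601 and 1656 CPM in the same order.

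Of the 10 members, 9 passed the filter on low counts and were tested; Batf3 did not pass. edgeR's quasi-likelihood test was used, with Benjamini-Hochberg adjustment over 10536 genes and a threshold of 0.05. Only Jund passed in any of the comparisons. It was lower in CD27+CD69- than in CD11b+CD69- cells, 1 of 9 tested members where 12.4% of all tested genes were called and 4.92% were called as lower. It was also the only member called when the test asked for any difference among the 4 populations, where 14.1% of tested genes were called; 7 of 9 members had an unadjusted p under 0.05 in that test, as did 24.2% of tested genes. The plot of levels by library gives the values behind these tests.

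**Figure D2:**
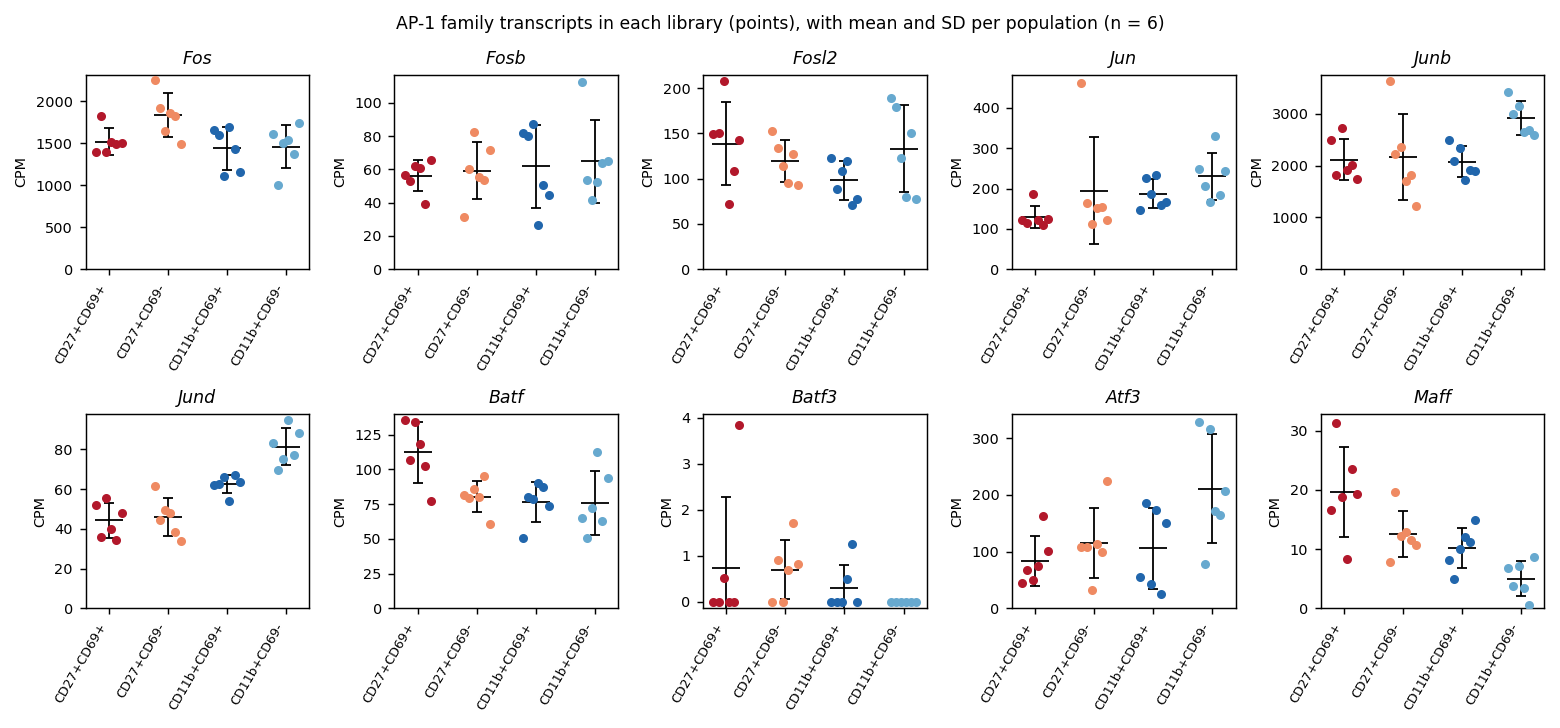
Level (CPM, vertical axes, linear) of the 10 genes in each of 24 libraries (points) for 4 populations (horizontal axes), with the mean (long dash) and SD (bars), n = 6 each. Jund in CD27+CD69- libraries (33.8 to 61.6 CPM) lies below all CD11b+CD69- libraries (69.6 to 94.7), and 1 CD27+CD69- library stands apart for Jun at 463 CPM.

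The Jun genes encode the partners that every Fos protein needs. JUN itself is the classical AP-1 activator, JUNB can act as an activator or a restraint depending on its partner, and JUND is often the more steadily expressed member in resting cells. The stretches just upstream of the transcription starts of these genes and of Fos are shown because Jund was the only member called and the others are the remaining Jun genes and the main Fos gene. Each is the 250 bases before the RefSeq start on GRCm38.p6, read 5′ to 3′ along the gene's own strand. Capitals mark matches on either strand to TGACNTCA (the form bound by Jun and Atf dimers), TGANTCA (the classical AP-1 form), TGACG (the core of a cAMP response element) or the CArG box of serum response factor.
Jun promoter, chr4:95052223-95052472, minus strand: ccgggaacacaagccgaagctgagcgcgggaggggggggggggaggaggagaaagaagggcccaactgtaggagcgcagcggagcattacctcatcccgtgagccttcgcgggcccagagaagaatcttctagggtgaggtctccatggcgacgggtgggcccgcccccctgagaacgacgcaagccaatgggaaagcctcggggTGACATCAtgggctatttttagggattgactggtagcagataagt
Junb promoter, chr8:84978749-84978998, minus strand: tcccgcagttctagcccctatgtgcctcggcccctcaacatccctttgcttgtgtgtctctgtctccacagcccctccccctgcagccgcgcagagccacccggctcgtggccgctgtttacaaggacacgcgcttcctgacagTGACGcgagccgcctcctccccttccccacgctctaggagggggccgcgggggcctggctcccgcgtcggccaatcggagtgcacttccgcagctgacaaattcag
Jund promoter, chr8:70697489-70697738, plus strand: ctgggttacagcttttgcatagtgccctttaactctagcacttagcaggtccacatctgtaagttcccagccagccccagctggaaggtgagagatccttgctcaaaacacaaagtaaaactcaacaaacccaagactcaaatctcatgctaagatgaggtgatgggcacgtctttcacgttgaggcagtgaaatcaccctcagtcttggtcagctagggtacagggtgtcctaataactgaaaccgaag
Fos promoter, chr12:85473640-85473889, plus strand: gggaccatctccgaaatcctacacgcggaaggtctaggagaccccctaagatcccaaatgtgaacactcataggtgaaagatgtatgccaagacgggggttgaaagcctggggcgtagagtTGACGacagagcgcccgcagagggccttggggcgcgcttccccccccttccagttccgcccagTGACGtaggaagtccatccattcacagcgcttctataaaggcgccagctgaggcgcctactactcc
The Jun window held TGACATCA from 45 to 38 bases before the start, a match to TGACNTCA, which 7.49% of 32851 RefSeq promoter windows of the same length held. Junb held TGACG from 106 to 102 bases before its start, and Fos held it at 129 to 125 and at 66 to 62 bases before the start; 17.8% of the windows held this motif. The Jund window held none of the 4 motifs, as did those of Fosl2 and Batf3, which says only that these letters are not in them. The RefSeq start of Jund lies 1210 bases upstream of the gene start in GENCODE M21, so the window differs with the annotation. TGANTCA, held by 6.75% of windows, and the CArG box, held by 1.47%, matched in none of the 4. Only these 250 bases were searched, so a site further upstream, of Fos or of any other gene, would not be seen. A match is no evidence of binding. A TGACG inside a TGACNTCA match would be counted under both names, which occurs in none of these 4 windows.

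Jund (chromosome 8, 70698949 to 70700616 on GRCm38, a single exon in GENCODE M21) had its lowest levels in both CD27+ populations and its highest in CD11b+CD69- cells. The lowest, median and highest libraries had 33.8, 46.3 and 61.6 CPM in CD27+CD69- cells, against 69.6, 80.2 and 94.7 CPM in CD11b+CD69- cells. All 6 CD27+CD69- libraries lay below all 6 CD11b+CD69- libraries; 6.62% of tested genes showed such a separation, in either direction, in this comparison. The log2 difference was -0.82 (SE 0.18, 95% interval -1.18 to -0.46, edgeR adjusted p = 0.00194), a fold of 0.567. Leaving out any 1 of the 12 libraries kept it between -0.92 and -0.75, with adjusted p between 0.000686 and 0.00635.

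Fibroblast RNA moved with this comparison. CD27+CD69- replicate 5, which had the least of it at 258 CPM, had 38.5 CPM of Jund, below every CD11b+CD69- library. That library also held 162 CPM of melanoma and 373 CPM of T cell markers. Population and RNA of other cells thus cannot be told apart in this comparison. Without the 3 CD27+CD69- libraries richest in fibroblast markers, an alternative added after seeing the data, the difference was -0.72 (edgeR adjusted p = 0.0482). With the fibroblast sum as a covariate it was -1.05, but the call was lost (edgeR adjusted p = 0.511); under that model calls over all genes in this comparison dropped to 44, from 1304 without it. T cell markers, higher in CD27+ libraries, moved with it too, and their part in the result was not tested.

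Among CD69+ cells the same contrast was smaller. Jund had 34.5, 43.9 and 55.4 CPM (lowest, median and highest) in CD27+CD69+ libraries, against 53.8, 63.0 and 67.02 CPM in CD11b+CD69+ libraries. The ranges overlapped narrowly, although all 6 CD27+CD69+ libraries lay below the CD11b+CD69+ median. The log2 difference of -0.50 (SE 0.18) did not pass (edgeR adjusted p = 0.179), and its gap to the contrast among CD69- cells, 0.32 with a 95% interval of -0.19 to 0.83, did not pass either (edgeR adjusted p = 0.798). Within CD11b+ cells, no CD69+ library of Jund reached the lowest CD69- library, yet the difference of -0.38 (SE 0.17) did not pass (edgeR adjusted p = 0.316). Within CD27+ cells the CD69+ and CD69- levels lay within 0.06 on the log2 scale of each other, with a 95% interval of -0.42 to 0.30 for the difference. From the highest mean down, the order was thus CD11b+CD69- before CD11b+CD69+ cells, then CD27+CD69- before CD27+CD69+ cells, and only the first neighbours in it had separate ranges.

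Junb (chromosome 8, 84974484 to 84978718) was the most abundant member and was highest in CD11b+CD69- cells. The lowest, median and highest libraries had 1723, 1996 and 2499 CPM in CD11b+CD69+ cells, against 2588, 2848 and 3412 CPM in CD11b+CD69- cells. Every CD11b+CD69+ library lay below every CD11b+CD69- library, a separation that Jund and Junb shared and that 3.19% of tested genes showed in this comparison. The log2 difference of -0.49 (SE 0.17, 95% interval -0.84 to -0.14) did not pass in the fit of all 4 populations (edgeR adjusted p = 0.133). It passed in a fit to the CD11b+ libraries alone, at -0.49 (edgeR adjusted p = 0.00551), and in a fit of all 4 populations with the replicate number as a block, at -0.50 (edgeR adjusted p = 0.0128). Fibroblast markers were at or near 0 in both of these populations, but other markers differed between them. T cell markers averaged 58.6 CPM in CD11b+CD69+ and 7.09 in CD11b+CD69- libraries. Dendritic cell markers averaged 29.2 and 6.51 CPM, and endothelial markers 97.5 and 50.4 CPM, in the same order. The endothelial sum was Pecam1 alone, as Cdh5, Kdr and Egfl7 were at 0 in both populations. Of the dendritic cell markers, Flt3 and Clec9a were at 0 in both. Xcr1 was also at 0 in CD11b+CD69- cells, which left Zbtb46 alone there. The part of these in the Junb difference was not tested.

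In CD27+ cells Junb had 1742, 1965 and 2725 CPM in CD69+ libraries, against 1223, 2014 and 3637 CPM in CD69- libraries. These ranges overlapped throughout, and the log2 difference was -0.03 (SE 0.17, edgeR adjusted p = 0.991). Set against CD11b+CD69- cells, the CD27+CD69- cells had a difference of -0.43 (SE 0.17), which did not pass (edgeR adjusted p = 0.102). This call depended on the fit and on 1 library. Without CD27+CD69- replicate 1 the difference was -0.65 and passed (edgeR adjusted p = 0.00239), and with all libraries it passed with limma-voom at -0.46 (adjusted p = 0.0419) and with the replicate block given in the closing section. With the fibroblast covariate the sign turned, at 0.0091 (edgeR adjusted p = 0.997). Between CD27+CD69+ and CD11b+CD69+ cells the difference was 0.03, with a 95% interval of -0.32 to 0.38.

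Jun (chromosome 4, 95049034 to 95052222, a single exon) followed the same order of means as Atf3, highest in CD11b+CD69- and lowest in CD27+CD69+ cells. Its lowest, median and highest libraries had 110, 123 and 185 CPM in CD27+CD69+ cells, against 113, 153 and 463 CPM in CD27+CD69- cells. CD11b+CD69+ libraries had 148, 177 and 233 CPM, against 166, 225 and 331 CPM in CD11b+CD69- libraries. All neighbouring populations overlapped. The mean of CD27+CD69- cells, 195 CPM, was above that of CD11b+CD69+ cells, 187 CPM, only with CD27+CD69- replicate 1; its other 5 libraries averaged 141 ± 22.6 CPM (SD). CD27+CD69- replicate 1, with 939 counts and 463 CPM, stood far above the next library of its population at 165 CPM.

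That library also had the highest Junb (3637 CPM), Fos (2253 CPM), Jund (61.6 CPM) and Fosl2 (153 CPM) of its population, but the lowest Fosb (31.6 CPM) and the lowest Maff (7.89 CPM). Its depth of 2020937 counts and its fibroblast sum of 2981 CPM lay inside the range of the other CD27+CD69- libraries. Its mitochondrial share of counts, 0.657%, lay below theirs (0.977 to 1.57%) and was the lowest of all 24 libraries, and its part in these levels was not tested. With it, the log2 difference of Jun between CD27+CD69- and CD11b+CD69- cells was -0.24 (SE 0.26, edgeR adjusted p = 0.646). Without it, the difference was -0.71 and passed (edgeR adjusted p = 0.00671). The difference between CD27+CD69+ and CD27+CD69- cells was -0.59 (SE 0.26, edgeR adjusted p = 0.351) with it, and its lowest size with 1 library left out was -0.12. Between CD27+CD69+ and CD11b+CD69+ cells, where this library does not enter the means, Jun differed by -0.53 (SE 0.26, edgeR adjusted p = 0.441).

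Libraries that do not mark the strand leave an uncertainty for all 3 Jun genes. Exons of Prdx2, with 8752 counts in all, overlap those of Junb over 173 bases on the opposite strand in GENCODE M21. The antisense gene Junos had 26 counts over all libraries and overlaps Jun over 232 bases. Gm11175, which overlaps Jund over 877 of its 1668 exon bases, had 0 counts. Reads from the shared stretches cannot be told apart by strand in these libraries. How such reads were counted is not known, so the 0 counts do not show whether Jund lost reads there. The level of Jund per kilobase, and its place below Batf, Atf3 and Jun, carry this limit.

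Fos proteins supply the other side of the classical dimer, and Fos is the prototype of a gene switched on within minutes. Fos (chromosome 12, 85473890 to 85477273) was high in all 24 libraries, between 1001 and 2253 CPM, a spread of 2.25 times. The lowest, median and highest libraries had 1388, 1493 and 1821 CPM in CD27+CD69+ cells, against 1483, 1840 and 2253 CPM in CD27+CD69- cells. In CD11b+ cells they were 1111, 1515 and 1695 CPM in CD69+ libraries, against 1001, 1518 and 1742 CPM in CD69- libraries. All 4 ranges overlapped, with CD27+CD69- cells highest on average.

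None of the Fos differences passed. The log2 difference between CD27+CD69+ and CD27+CD69- cells was -0.27 (SE 0.12, edgeR adjusted p = 0.400), with all 6 CD27+CD69+ libraries below the CD27+CD69- median. That between CD27+CD69- and CD11b+CD69- cells was 0.33 (SE 0.12, edgeR adjusted p = 0.0901), with 5 of 6 libraries above the CD11b+CD69- median; DESeq2 called it, at 0.36 (adjusted p = 0.0292). In CD11b+ cells the CD69 difference was -0.02, with a 95% interval of -0.27 to 0.24. Fibroblast markers were highest in CD27+CD69- libraries, where Fos was highest too, and their part in the Fos level was not tested beyond the alternatives given in the closing section.

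Fosb, a close relative that is also rapidly induced, had means between 56.2 and 65.0 CPM in the 4 populations, with single libraries from 26.4 to 113 CPM. Its log2 differences lay between -0.14 and -0.07 in the 4 comparisons of populations. Their standard errors were 0.27 to 0.28, larger than the differences, and the smallest edgeR adjusted p of the 4 was 0.846. Fosl2, which encodes the later and longer-lived protein FRA2, averaged 139 ± 45.9 CPM in CD27+CD69+, 120 ± 23.1 in CD27+CD69-, 98.0 ± 21.9 in CD11b+CD69+ and 133 ± 48.2 in CD11b+CD69- cells (SD, n = 6 each). Its largest difference was 0.50 (SE 0.24) between CD27+CD69+ and CD11b+CD69+ cells (edgeR adjusted p = 0.404). In CD11b+ cells its CD69 difference was -0.44 (SE 0.24, edgeR adjusted p = 0.421), with all 6 CD69+ libraries below the CD69- median but overlapping ranges.

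Batf and Batf3 encode short AP-1 proteins that pair with Jun proteins and can bind DNA together with IRF4 or IRF8. Batf (chromosome 12, 85686669 to 85709087) had its highest mean in CD27+CD69+ cells. The lowest, median and highest libraries had 77.5, 113 and 136 CPM in CD27+CD69+ cells, against 61.0, 80.6 and 95.02 CPM in CD27+CD69- cells. CD11b+ libraries had 50.3, 79.3 and 90.3 CPM in CD69+ cells, against 50.3, 68.5 and 113 CPM in CD69- cells. In CD27+CD69+ cells 5 of 6 libraries lay above the median of CD27+CD69- cells and 5 of 6 above that of CD11b+CD69+ cells.

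The Batf difference was 0.48 (SE 0.19, edgeR adjusted p = 0.272) between CD27+CD69+ and CD27+CD69- cells. It was 0.55 (SE 0.19, edgeR adjusted p = 0.167) between CD27+CD69+ and CD11b+CD69+ cells. In CD69- cells the CD27+ and CD11b+ populations differed by 0.08, with a 95% interval of -0.31 to 0.47. T cell markers were also highest in CD27+CD69+ libraries, at 1140 ± 339 CPM, and their part in the Batf level was not tested. Batf3, best known for its role in dendritic cells, had 9 counts in CD27+CD69+, 8 in CD27+CD69-, 4 in CD11b+CD69+ and 0 in CD11b+CD69- libraries. These 21 counts came from 8 of 24 libraries, and 8 of them from CD27+CD69+ replicate 6 alone. Single libraries were at most 3.85 CPM, near the level that 3 counts give, so no population difference in Batf3 was detectable at this depth.

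Atf3 encodes a stress-inducible protein that can repress or activate with Jun partners. It varied widely between libraries of the same population. Its lowest, median and highest libraries had 45.2, 70.8 and 163 CPM in CD27+CD69+ cells, against 33.1, 108 and 225 CPM in CD27+CD69- cells. CD11b+ libraries had 26.2, 103 and 186 CPM in CD69+ cells, against 77.6, 189 and 328 CPM in CD69- cells. The ranges of all populations overlapped, with CD11b+CD69- cells highest on average.

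In CD11b+ cells the CD69 difference of Atf3 was -0.998, the most negative value of any member in the 4 comparisons of populations, with an SE of 0.45 (edgeR adjusted p = 0.311). All 6 CD11b+CD69+ libraries lay below the CD11b+CD69- median. Between CD27+CD69- and CD11b+CD69- cells the difference was -0.89 (SE 0.45, edgeR adjusted p = 0.237).

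Maff encodes a small Maf protein, which pairs with itself or with larger bZIP partners. It was the least abundant tested member, and its order of means ran opposite to that of Jund. The lowest, median and highest libraries had 8.26, 19.0 and 31.3 CPM in CD27+CD69+ cells, against 7.89, 11.9 and 19.6 CPM in CD27+CD69- cells. CD11b+ libraries had 4.99, 10.6 and 14.9 CPM in CD69+ cells, against 0.492, 5.31 and 8.61 CPM in CD69- cells. All 6 CD27+CD69- libraries lay above the CD11b+CD69- median, with overlapping ranges. The log2 difference between these populations was 1.30 (SE 0.51, 95% interval 0.25 to 2.34, edgeR adjusted p = 0.103). DESeq2 called it, at 1.34 (adjusted p = 0.0321). Between CD11b+CD69+ and CD11b+CD69- cells Maff differed by 1.011 (SE 0.51, edgeR adjusted p = 0.379), and between CD27+CD69+ and CD11b+CD69+ cells by 0.93 (SE 0.50, edgeR adjusted p = 0.510). Single libraries held 1 to 67 counts of Maff. The test for any difference among the 4 populations gave an edgeR adjusted p of 0.0528.

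Read by comparison, edgeR's fit of all 4 populations called no tested member between CD69+ and CD69- cells, the sorting marker of activation. Among CD11b+ cells 0 of 9 passed edgeR's test, where 2.74% of all tested genes did. Junb, Jund and Atf3 had an unadjusted p under 0.05, as did 13.9% of tested genes, all 3 lower in CD69+ cells; DESeq2 and limma-voom also called 0, while the fit to the CD11b+ libraries alone and the replicate block each called Junb. The median log2 difference of the 9 members was -0.30, beside 0.00 for all tested genes. Among CD27+ cells 0 of 9 passed, where 1.85% of tested genes did. Here 3 members (Fos and Jun lower, Batf higher in CD69+ cells) and 11% of tested genes had an unadjusted p under 0.05, and DESeq2 and limma-voom called 0. No member had separate ranges, where 2.11% of tested genes did, and the median was -0.06, beside -0.01 for all tested genes.

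Between CD27+ and CD11b+ cells the median difference of the members was -0.15 among CD69- cells, beside 0.05 for all tested genes. Jund passed, and 4 of 9 members had an unadjusted p under 0.05, where 23.7% of tested genes had: Fos and Maff higher, Junb and Jund lower in CD27+ cells. Among CD69+ cells 0 of 9 passed edgeR's test, where 1.9% of tested genes did. Fosl2, Jund and Batf had an unadjusted p under 0.05 there, as did 11.4% of tested genes, and DESeq2 and limma-voom called 0. No member had separate ranges, where 2.29% of tested genes did, and the median was 0.03, beside 0.02 for all tested genes. These comparisons share populations, so their values are not independent of each other.

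**Figure D3:**
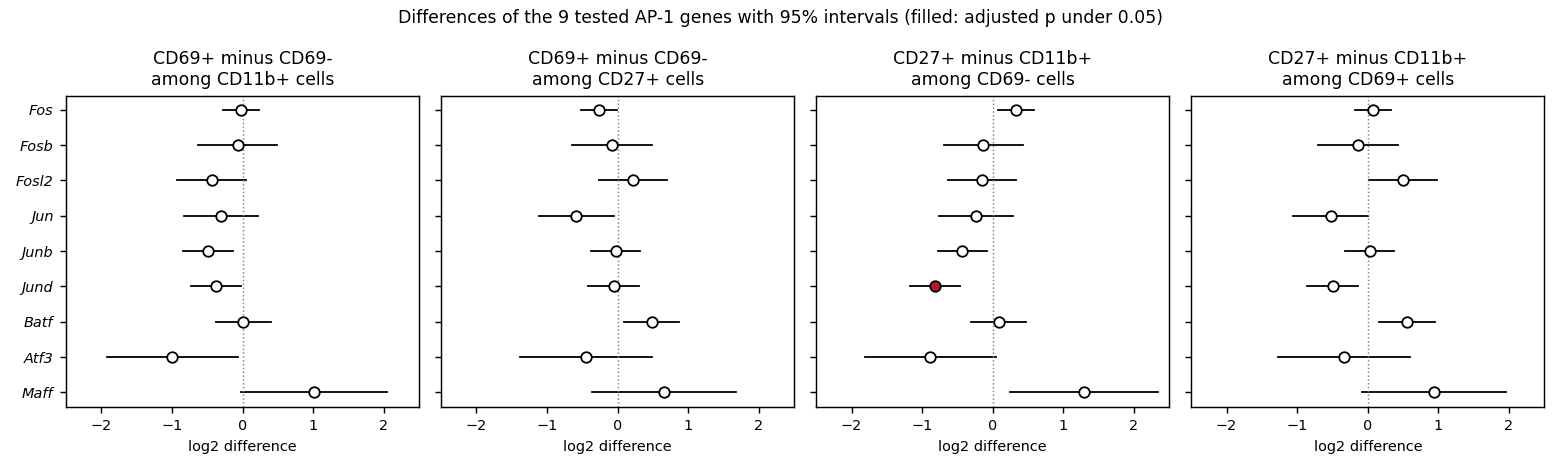
Log2 difference (horizontal axis) with its 95% interval for the 9 tested genes (rows) in 4 comparisons of populations (panels), from edgeR; a filled point marks an adjusted p under 0.05. Only Jund in CD27+ minus CD11b+ among CD69- cells is filled, at -0.82, and most other intervals include 0.

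The CD69 differences themselves did not differ detectably between CD27+ and CD11b+ cells for any member. None of 9 passed edgeR's test of that difference, where 0.579% of tested genes did, none had an unadjusted p under 0.05 where 9.46% of tested genes had, and DESeq2 and limma-voom called 0. Fosl2 came closest with a gap of 0.65 (SE 0.33, 95% interval -0.03 to 1.34, edgeR adjusted p = 0.563), followed by Junb with 0.46 (SE 0.24, edgeR adjusted p = 0.575).

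Members were also compared library by library within populations, as Pearson's r between deviations of log2(CPM + 1) from the population mean over 24 libraries. The points share depth and scaling within a library, and the values are a description. Over 36 pairs of tested members the median r was 0.09, from -0.36 to 0.66, and 21 were positive. The highest were among the Jun genes: Junb with Jund at 0.66, Jun with Jund at 0.58 and Jun with Junb at 0.53. Without CD27+CD69- replicate 1 these were 0.52, 0.39 and 0.06, so that the link of Jun with Junb rested on that library, while Jun with Batf, 0.38 with it, was 0.57 without it and then the highest of the 36 pairs. Fosl2 with Junb, at 0.51, was 0.50 without it. Fos and Junb, the most abundant pair, had an r of 0.17, and Fos and Fosb one of -0.20.

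**Figure D4:**
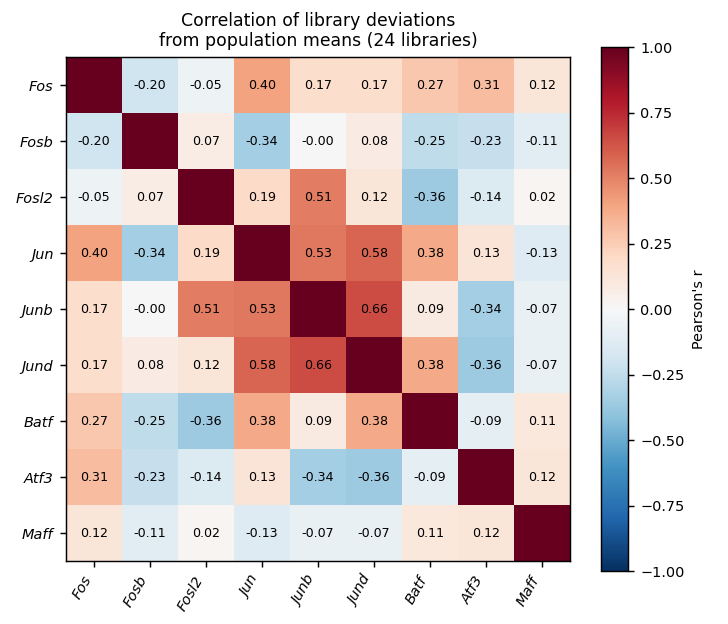
Pearson's r (colour scale and printed values) between the deviations of log2(CPM + 1) from population means over 24 libraries, for each pair of the 9 tested genes (both axes). The 3 Jun genes share the strongest positive values (0.53 to 0.66), of which Jun with Junb is 0.06 without CD27+CD69- replicate 1, while Fosb and Atf3 show mostly weak or negative ones.

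Among 7860 other genes with a mean of at least 10 CPM, those nearest to each member by the same r were listed for the first and second places. They were Itgb2 (0.90) and H2-K1 (0.88) for Junb, Arpc1b (0.82) and Fhl2 (0.82) for Jun, and Zdhhc18 (0.80) and Sema4a (0.76) for Jund. For the Fos genes they were Vps4a (0.86) and Sp2 (0.75) for Fos, Zbed3 (0.75) and Sptbn1 (0.75) for Fosb, and Slc3a2 (0.76) and Slc38a1 (0.75) for Fosl2. The remaining members had Ttf1 (0.72) and Klhl36 (0.70) for Batf, Pvr (0.77) and Rnf216 (0.72) for Atf3, and Git1 (0.77) and Rnf14 (0.72) for Maff. Being the highest of so many values, these are descriptions of these libraries. Rank correlations were lower for most, at 0.59 for Arpc1b with Jun and 0.49 for Rnf14 with Maff, but not for Pvr with Atf3 (0.78). The ranking was not repeated without CD27+CD69- replicate 1.

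The remaining genes of the family gave no call by edgeR. Of 9 other AP-1 and Maf genes, 6 were tested (Jdp2, Atf2, Atf7, Maf, Mafg and Mafk) and 0 were called by edgeR in any comparison. An unadjusted p under 0.05 was seen for 1 of the 6 between CD11b+CD69+ and CD11b+CD69- cells, for 1 between CD27+CD69- and CD11b+CD69- cells and for 1 in the difference of the CD69 differences. DESeq2 called 1, Maf, in the first of these and in the test for any difference, and limma-voom called 0. Maf itself, a larger Maf factor, averaged 14.1 to 19.0 CPM in the first 3 populations and 6.72 ± 4.92 CPM in CD11b+CD69- cells. Its difference between CD11b+CD69+ and CD11b+CD69- cells was 1.41 (SE 0.48, edgeR adjusted p = 0.126). Fosl1, the fourth Fos gene, averaged at most 2.99 CPM in any population. Batf2 had counts in only 3 libraries, all CD27+CD69-, and 206 of its 229 counts came from replicate 5.

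Other immediate early genes, which the same signals induce as Fos and Jun, gave calls, and every one of these was lower. Of 15 tested, 3 were lower in CD69+ than in CD69- cells among CD11b+ cells (Ier2, Zfp36 and Nr4a1), 2 among CD27+ cells (Egr1 and Nr4a1), and 0 were higher in either. Over all tested genes, 2.74% and 1.85% were called in these comparisons. Between CD27+ and CD11b+ cells 7 were lower and 0 higher among CD69- cells, where 12.4% of all tested genes were called and 4.92% were lower, and 1 (Dusp2) was lower among CD69+ cells, where 1.9% were called. The list medians were -0.47, -0.23, -0.55 and -0.29 in these 4 comparisons, beside 0.00, -0.01, 0.05 and 0.02 for all tested genes. The count differences between the lists were not tested.

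Ier2, a small nuclear protein gene, averaged 694 ± 52.3 CPM in CD11b+CD69+ and 1257 ± 91.9 in CD11b+CD69- cells, a log2 difference of -0.86 (SE 0.14, edgeR adjusted p = 0.000414). Zfp36, whose product destabilises cytokine mRNAs, averaged 316 ± 45.0 CPM and 594 ± 56.1 CPM in the same populations (-0.91, SE 0.17, edgeR adjusted p = 0.00162). Nr4a1, an orphan nuclear receptor gene read as a sign of receptor signalling in lymphocytes, averaged 239 ± 62.5 CPM and 541 ± 148 CPM there (-1.18, SE 0.25, edgeR adjusted p = 0.00609). For all 3, every CD11b+CD69+ library lay below every CD11b+CD69- library, as for Junb and Jund.

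Among CD27+ cells Nr4a1 had a difference of -0.96 (edgeR adjusted p = 0.0437) between CD69+ and CD69- cells, and Egr1, a zinc finger factor, one of -1.22 (edgeR adjusted p = 0.0297). Fibroblast markers moved with this comparison. With their sum as a covariate neither passed, at -0.95 for Nr4a1 and -0.65 for Egr1 (edgeR adjusted p = 0.9997 each). Under that model calls over all genes in this comparison dropped to 1, from 195 without it. Almost no gene passed there, so the lost calls by themselves do not single out Nr4a1 or Egr1. The difference of Nr4a1 went from -0.96 to -0.95 with the covariate, and that of Egr1 from -1.22 to -0.65. The part of fibroblast RNA in them was not tested further. Neither gene passed with limma-voom (adjusted p = 0.0549 and 0.0761) or in the fit to the CD27+ libraries alone (edgeR adjusted p = 0.0853 and 0.0567). Both also depended on single libraries: without CD27+CD69- replicate 1 the values were -0.68 for Nr4a1 (edgeR adjusted p = 0.146) and -0.95 for Egr1 (edgeR adjusted p = 0.0891). The Nr4a1 call also ended without CD27+CD69+ replicate 1, 2 or 4 or CD27+CD69- replicate 2, 3 or 6, and the Egr1 call without CD27+CD69+ replicate 3 or 4 or CD27+CD69- replicate 3 or 6. Between CD27+CD69- and CD11b+CD69- cells, Dusp2, a MAP kinase phosphatase, had 456 ± 196 and 989 ± 89.2 CPM (-1.12, SE 0.20, edgeR adjusted p = 0.000241). Ier5 differed by -0.97 (edgeR adjusted p = 0.000289) and Ier2 by -0.70 (edgeR adjusted p = 0.000914) there. With the fibroblast covariate none of these 3 passed (Dusp2 -1.11, Ier5 -0.51 and Ier2 -0.31). Calls over all genes there dropped to 44, from 1304 without it. Dusp2 was also lower in CD27+CD69+ than in CD11b+CD69+ cells, with a difference of -0.95 (edgeR adjusted p = 0.00551).

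**Figure D5:**
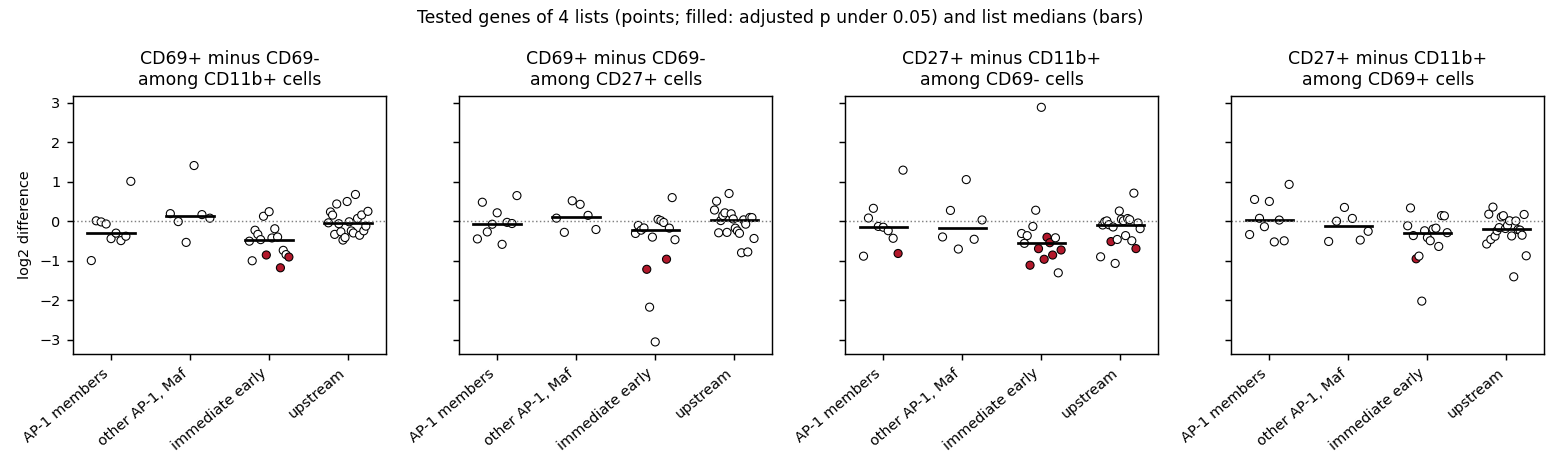
Log2 difference (vertical axis) of the tested genes of 4 lists (points; filled where the edgeR adjusted p is under 0.05) with the list medians (bars), in 4 comparisons of populations (panels). Filled points lie below 0 in each list that has any, with 7 of 15 immediate early genes filled in CD27+ minus CD11b+ among CD69- cells.

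Of 20 tested kinases and transcription factors that act upstream of AP-1, 2 passed in any of the 4 comparisons, both lower in CD27+CD69- than in CD11b+CD69- cells, where 12.4% of all tested genes were called and 4.92% were lower. Map2k2, which encodes the ERK kinase MEK2, averaged 134 ± 22.0 and 192 ± 12.8 CPM (-0.52, SE 0.12, edgeR adjusted p = 0.00430). Mef2d, a calcium-responsive factor gene, averaged 56.0 ± 12.4 and 90.7 ± 13.7 CPM (-0.69, SE 0.19, edgeR adjusted p = 0.0119). Neither passed with the fibroblast covariate, at -0.45 and -0.42, nor did Mef2d without the 3 fibroblast-rich libraries (-0.63, edgeR adjusted p = 0.0921).

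Partners that bind DNA with AP-1 in lymphocytes included one gene with large differences, Irf8, whose product binds composite sites with BATF and JUN proteins. It averaged 487 ± 90.4 CPM in CD27+CD69+, 491 ± 149 in CD27+CD69-, 1323 ± 191 in CD11b+CD69+ and 2144 ± 220 in CD11b+CD69- cells. It was lower in CD27+ than in CD11b+ cells, with a log2 difference of -2.12 among CD69- cells (edgeR adjusted p = 9.08e-10) and of -1.44 among CD69+ cells (edgeR adjusted p = 1.35e-06). In CD11b+ cells it was lower in CD69+ than in CD69- cells, with a difference of -0.70 (edgeR adjusted p = 0.00928). All 3 comparisons had ranges that did not overlap, as did 6.62%, 2.29% and 3.19% of tested genes in this order. Over all tested genes 12.4%, 1.9% and 2.74% were called in them. Of the 7 tested partners edgeR called only Nfatc1 besides, at -0.51 between CD27+CD69- and CD11b+CD69- cells (edgeR adjusted p = 0.0457), with values of -0.67 to -0.41 when 1 library was left out. That call ended without CD27+CD69- replicate 2, 4, 5 or 6 or CD11b+CD69- replicate 1, 2, 5 or 6. It also ended with DESeq2 size factors, without the filter on low counts, in the fit to the CD69- libraries alone, with the fibroblast covariate and without the 3 fibroblast-rich libraries (edgeR adjusted p = 0.0559 to 0.994). In the test for any difference, DESeq2 and limma-voom also called Runx3.

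Genes with well-known AP-1 sites in their promoters or enhancers moved in both directions. Over all tested genes, 2.74% were called for CD69 among CD11b+ and 1.85% among CD27+ cells. Of 12 tested, 3 were higher and 1 lower in CD69+ than in CD69- cells among CD11b+ cells, and 0 and 1 among CD27+ cells. One of the 3 is Cd69 itself, the gene of the sorting marker, whose difference the sort sets. Between CD27+ and CD11b+ cells 1 was higher and 4 lower among CD69- cells, where 12.4% of all tested genes were called and 4.92% were lower. Among CD69+ cells the counts were 0 and 4, where 1.9% of all tested genes were called. The 1 higher gene, Timp1, which encodes an inhibitor of matrix proteases, spanned 25.7 to 272 CPM in CD27+CD69- libraries and was at 0 in every CD11b+CD69- library, as fibroblast markers were at 258 to 11000 and 0 to 8.02 CPM, and their part in it was not tested. Gzmb, the cytotoxic protease granzyme B, averaged 1068 ± 337 CPM in CD27+CD69- and 9353 ± 1659 in CD11b+CD69- cells (-3.13, SE 0.29, edgeR adjusted p = 8.04e-08). Ccl3, a chemokine gene, averaged 46.4 ± 25.8 CPM in CD27+CD69+ and 759 ± 273 in CD11b+CD69+ cells (-4.03, SE 0.36, edgeR adjusted p = 1.85e-07), and 217 ± 109 in CD27+CD69- cells. It was the call among CD27+ cells, at -2.23 (edgeR adjusted p = 0.000381). With the fibroblast covariate it was -2.54 and did not pass (edgeR adjusted p = 0.914). Under that covariate calls over all genes among CD27+ cells dropped to 1, from 195. Ifng, the interferon gamma gene, averaged 145 ± 19.5 CPM in CD27+CD69+ and 360 ± 65.9 in CD11b+CD69+ cells (-1.32, SE 0.21, edgeR adjusted p = 0.000334). Fasl, the death ligand gene, was lower in CD11b+CD69+ than in CD11b+CD69- cells, at 1193 ± 71.6 and 1745 ± 164 CPM (-0.55, SE 0.12, edgeR adjusted p = 0.00844).

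Csf2, which encodes the cytokine GM-CSF, and Spp1, which encodes osteopontin, were higher in CD69+ than in CD69- cells among CD11b+ cells. Csf2 spanned 0 to 118 CPM in CD11b+CD69+ libraries, against 0 to 1.53 in CD11b+CD69- libraries, with 617 and 8 counts in all (edgeR adjusted p = 0.00353). Spp1 spanned 19.6 to 1379 CPM in CD11b+CD69+ libraries, against 0 to 20.5 in CD11b+CD69- libraries (edgeR adjusted p = 0.0123). Neither passed with limma-voom (adjusted p = 0.190 and 0.359), and without CD11b+CD69+ replicate 3 Spp1 did not pass (edgeR adjusted p = 0.0508).

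Heat shock genes, another set that stress induces, gave 3 calls among 8 tested. Of these, 2 were in CD27+ against CD11b+ among CD69- cells, where 12.4% of all tested genes were called. The other was among CD69+ cells, where 1.9% were called. Hspb1, a small chaperone gene, had 396 counts in CD27+CD69- and 0 in CD11b+CD69- libraries (edgeR adjusted p = 0.0212). Of the 396, 271 came from CD27+CD69- replicate 6, the library richest in melanoma markers. Replicate 6 also held 131 of 163 counts in CD27+CD69+ and 121 of 193 in CD11b+CD69+ libraries. Melanoma markers were at 59.2 and 2.07 CPM in the replicate 6 libraries of those populations. What the replicate 6 libraries share was not tested. Without CD27+CD69- replicate 6 Hspb1 still passed. It did not pass without the filter on low counts (edgeR adjusted p = 0.0542) or with the fibroblast covariate (edgeR adjusted p = 0.918). Hspe1, a mitochondrial chaperone gene, averaged 217 ± 171 CPM in CD27+CD69- and 107 ± 9.47 in CD11b+CD69- cells (edgeR adjusted p = 0.0232). Without CD27+CD69- replicate 6 it did not pass (edgeR adjusted p = 0.180). Replicate 6 was also its highest library in CD27+CD69+ (275 CPM) and CD11b+CD69+ (219 CPM) cells. Dnajb1, a co-chaperone gene, was lower in CD27+CD69+ than in CD11b+CD69+ cells, at 243 ± 45.4 and 430 ± 140 CPM (-0.82, edgeR adjusted p = 0.0346), and the call ended without CD27+CD69+ replicate 2, 3, 4 or 6 or CD11b+CD69+ replicate 2, 4 or 6, with adjusted p up to 0.105. In the CD69 comparisons edgeR called 0 of 8, with an unadjusted p under 0.05 for 3 among CD11b+ and 2 among CD27+ cells. Over all tested genes, 13.9% and 11% had such a p. DESeq2 called Hspb1 among CD11b+ cells and limma-voom called 0. All 8 were higher in CD69+ cells among CD11b+ cells (median log2 difference 0.35) and all 8 lower among CD27+ cells (median -0.68). The medians of all tested genes were 0.00 and -0.01. For the difference of the CD69 differences edgeR called 0 of 8. An unadjusted p under 0.05 was seen for 5 of them there, and for 9.46% of tested genes. What sets these signs was not tested.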

How the data were processed

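The authors deposited a table of raw counts, with Ensembl genes in rows and libraries in columns, and nothing was normalized in it. SMART-Seq v4 and Nextera XT were used on 100 sorted cells a library, per the labels' protocols. Neither marks the strand or single molecules, so floors reflect counting error alone. The submitters' processing notes name GRCm38, HTSeq and Picard; the aligner, annotation release and strand setting were not given in the sources used here.

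Groups follow the sample titles and the design text. Counts were scaled by TMM library sizes (CPM), and levels between genes were compared per kilobase of GENCODE M21 exon. In edgeR 4.0.16 (R 4.3.3), genes passing filterByExpr (minimum count 10) entered 1 quasi-likelihood fit of 4 population means over 24 libraries, with Benjamini-Hochberg adjustment over 10536 genes and a threshold of 0.05. Alternatives were DESeq2 1.42.0, limma-voom (limma 3.58.1), DESeq2 size factors, no filter, a replicate block, a fit to only the populations compared, fibroblast and macrophage marker covariates, and each library left out. The fit was tested on simulated data.

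Promoter windows are from the RefSeq table on GRCm38.p6, where all 10 members matched. The members and gene lists were chosen with earlier results of these data known. Most genes named beside the members are those called with the smallest p-values, up to 3 per list and comparison, and the closest pair by correlation. Some were named outside this rule, among them Maf, Fosl1, Batf2, Timp1, Cd69 and Runx3. The titles number libraries M1 to M6 in every population, which may mark mice, but no label says so; p-values therefore rest on the spread between libraries, which may be technical; replicate pairs differed beyond sampling noise in all 60 cases.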

Additional observations from a re-analysis of the deposited data

Results flagged for a closer look

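Of 39 groups of 6 libraries in which a member was detected, 5 held a library whose gap to the nearest of the others, as a share of the whole range, exceeded Dixon's 95% critical value; chance gives this in about 1 in 20 groups. Jun reached 463 CPM in CD27+CD69- replicate 1 (939 counts), against 165 CPM in the next library. Jun was also high in CD27+CD69+ replicate 3, at 185 CPM (365 counts), with the next at 124 CPM. Fos reached 1821 CPM in CD27+CD69+ replicate 2 (3897 counts), with the next at 1509 CPM. Fosb reached 113 CPM in CD11b+CD69- replicate 1 (247 counts), with the next at 65.2 CPM. Batf3 reached 3.85 CPM in CD27+CD69+ replicate 6, which is 8 counts.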

How the results depend on the processing

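The number of members called stayed at 0 under every alternative for CD69+ against CD69- among CD27+ cells, CD27+ against CD11b+ among CD69+ cells, and the difference of the CD69 differences. For CD69+ against CD69- among CD11b+ cells it was 1 (Junb) in the fit to only the populations compared. For CD27+ against CD11b+ among CD69- cells it was 3 with DESeq2 (Fos, Maff and Jund), 2 with limma-voom (Junb and Jund), 0 with the fibroblast covariate and 1 to 3 with 1 library left out. For any difference it was 4 with DESeq2 (Fos, Maff, Junb and Jund), 3 with limma-voom (Maff, Junb and Jund), 2 without the 3 fibroblast-rich libraries (Jun and Jund) and 1 to 4 with 1 library left out. There CD27+CD69- replicate 1 gave 4 (Jun, Junb, Maff and Jund), CD27+CD69+ replicate 4 and CD11b+CD69- replicate 6 gave 2 each (Maff and Jund), and CD27+CD69+ replicate 6 and CD11b+CD69- replicate 4 gave 2 each (Batf and Jund). For these last comparisons Jund was called under every alternative run, except with the fibroblast covariate among CD69- cells. The cause of these shifts was not tested.

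Libraries share replicate numbers across populations. Correlations of same-numbered libraries were -0.03 to 0.21 (median 0.00), and 1 of 36 was over 0.1. Those of differently numbered libraries were -0.15 to 0.13, and 3 of 180 were over 0.1. Of 24 libraries, 5 correlated best with their own number. Over all tested genes a shared number thus showed little, but single genes could differ. Hspb1 and Hspe1 were highest in replicate 6 of the CD27+CD69+, CD27+CD69- and CD11b+CD69+ populations. With the numbers as a replicate block, 1 member (Junb, -0.50) was called for CD69 among CD11b+ cells, 2 (Junb, -0.49, and Jund, -0.83) for CD27+ against CD11b+ among CD69- cells and 2 (Junb and Jund) for any difference. Under this block the signs of Junb for CD69 among CD27+ cells (0.016) and Fosb for the difference of the CD69 differences (0.024) turned; neither had passed.

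Other values changed sign without passing. With the fibroblast covariate, CD69 among CD27+ cells gave 0.30 for Fosb, -0.42 for Fosl2 and 0.15 for Jund. The same covariate gave 0.57 for Fosl2 and 0.0091 for Junb (-0.43 without it) in CD27+ against CD11b+ among CD69- cells, -0.019 for Batf in CD69 among CD11b+ cells and 0.34 for the Fosb difference of differences. That last value was 0.089 with limma-voom and 0.33 without the 3 fibroblast-rich libraries, which also gave 0.26 for Fosb in CD69 among CD27+ cells and 0.16 for Jun in CD27+ against CD11b+ among CD69- cells. The macrophage covariate gave -0.0029 for Batf in CD69 among CD11b+ cells. With 1 library left out, signs turned within these ranges: CD69 among CD11b+ cells for Fos (-0.11 to 0.047), Fosb (-0.19 to 0.16) and Batf (-0.084 to 0.15); CD69 among CD27+ cells for Fosb (-0.21 to 0.041), Junb (-0.15 to 0.18) and Jund (-0.13 to 0.044); CD27+ against CD11b+ among CD69- cells for Fosb (-0.25 to 0.10) and Batf (-0.014 to 0.23), and among CD69+ cells for Junb (-0.056 to 0.090); and the difference of differences for Fosb (-0.23 to 0.12) and Jun (-0.42 to 0.18).

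Batf3 stayed without a call when no filter on low counts was applied (adjusted p 0.105 to 1 over the 6 tests). With 0 to 8 counts a library, counting error alone is large at its level, and other sources of noise were not measured.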
